A study of Mus musculus with 6 samples.

Results

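Inflammatory cytokines and the receptors for tumour necrosis factor (TNF) were examined in livers lacking sphingosine 1-phosphate (S1P) lyase. The group held 10 genes: the ligands Tnf, Il1a, Il1b, Il6, Il10, Il18, Csf1 and Tgfb1, and the TNF receptor genes Tnfrsf1a and Tnfrsf1b. They were found by gene symbol, as every probe set that the annotation of the Affymetrix mouse array ties to exactly 1 of these symbols, which gave 15 of the 45101 probe sets. The livers were those of 3 S1P lyase knockout animals and of 3 wild-type (WT) animals, each read on 1 array, all of a mixed C57BL6 and 129sv background. S1P lyase, encoded by Sgpl1, irreversibly breaks down S1P, a signalling lipid. No treatment was given, and the age, sex and litter of the animals, and how the gene was inactivated, are not stated in the labels.

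TNF and interleukin-1 (IL-1) are early signals of inflammation, made mainly by macrophages and other leukocytes. TNF binds either the receptor encoded by Tnfrsf1a, which most cells carry and which has a death domain, or that encoded by Tnfrsf1b, which is largely found on leukocytes and endothelial cells. In the liver, IL-1 and IL-6 drive hepatocytes to make acute phase proteins, IL-10 restrains macrophages, CSF1 keeps macrophages alive, and TGF-beta drives matrix production by stellate cells.

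Of the 10 genes, Tgfb1 and Tnfrsf1b gave the highest rises in the knockout livers, each on its brighter probe set only. Csf1 rose on 1 of its 4 probe sets, 5 others were not called, and Il6 and Il10 were too dim to test. With arrays centred on spiked-in control RNAs, described below, none of these rises was called. The promoters of the 3 genes with a probe set that rose are printed with those of Tnf and Il1b. Tnf and Il1b encode the cytokines most often taken as signs of liver inflammation. For Csf1 the probe set that rose was not the brightest, which was not called. The printed promoters show the start regions of genes with a called probe set and of genes with none. Each runs 5′ to 3′ on the gene's own strand, from 250 bases before to 50 bases after the RefSeq start site, in build GRCm38.p6. Capitals mark GGGCGG, the GC box, and TATAAA, the TATA box, each searched on both strands. The coordinates are chr7:25686752-25687051 (+) for Tgfb1, chr4:145246821-145247120 (-) for Tnfrsf1b, chr3:107760420-107760719 (-) for Csf1, chr17:35201958-35202257 (-) for Tnf and chr2:129371090-129371389 (-) for Il1b.
Tgfb1: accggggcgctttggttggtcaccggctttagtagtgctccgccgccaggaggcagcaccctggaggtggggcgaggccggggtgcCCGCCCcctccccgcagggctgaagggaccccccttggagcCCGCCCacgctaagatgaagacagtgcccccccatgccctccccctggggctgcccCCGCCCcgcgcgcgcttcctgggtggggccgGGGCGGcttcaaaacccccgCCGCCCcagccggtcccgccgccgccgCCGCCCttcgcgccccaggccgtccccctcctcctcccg
Tnfrsf1b: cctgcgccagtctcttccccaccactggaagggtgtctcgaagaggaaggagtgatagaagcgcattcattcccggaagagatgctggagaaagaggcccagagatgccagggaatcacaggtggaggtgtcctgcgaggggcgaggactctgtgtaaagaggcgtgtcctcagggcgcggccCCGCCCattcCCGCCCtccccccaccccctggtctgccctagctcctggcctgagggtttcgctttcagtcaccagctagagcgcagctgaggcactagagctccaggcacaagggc
Csf1: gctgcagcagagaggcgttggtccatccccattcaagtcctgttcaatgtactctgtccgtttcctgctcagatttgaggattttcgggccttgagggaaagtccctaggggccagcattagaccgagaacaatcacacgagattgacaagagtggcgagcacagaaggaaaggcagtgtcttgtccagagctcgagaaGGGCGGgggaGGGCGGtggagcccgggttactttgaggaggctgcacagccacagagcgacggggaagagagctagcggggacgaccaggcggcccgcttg
Tnf: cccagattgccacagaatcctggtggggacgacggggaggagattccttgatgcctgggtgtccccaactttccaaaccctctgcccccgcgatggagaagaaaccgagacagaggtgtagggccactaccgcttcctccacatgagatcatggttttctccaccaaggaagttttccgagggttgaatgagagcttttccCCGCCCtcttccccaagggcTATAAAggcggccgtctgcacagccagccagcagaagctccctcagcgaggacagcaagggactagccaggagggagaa
Il1b: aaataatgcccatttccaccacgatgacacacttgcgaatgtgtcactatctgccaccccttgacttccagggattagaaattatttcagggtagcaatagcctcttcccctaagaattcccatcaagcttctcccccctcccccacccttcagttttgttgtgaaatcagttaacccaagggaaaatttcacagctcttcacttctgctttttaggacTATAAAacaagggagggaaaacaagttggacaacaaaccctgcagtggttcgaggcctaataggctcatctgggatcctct

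The RefSeq table held a promoter for 9 of the 10 genes, all but Il10. GGGCGG lay at 6 places in Tgfb1, 2 in Tnfrsf1b, 2 in Csf1 and 1 in Tnf, and TATAAA lay in none of the first 3. TATAAA began at position -29 from the start site in Tnf, -31 in Il1b and -32 in Il1a, and lay at -175 on the opposite strand in Il18. Of all 32851 promoters of this length, 35.7% held GGGCGG and 13.6% held TATAAA. The Tgfb1 window was 77% G or C, that of Tnfrsf1b 62.7% and that of Csf1 58.7%, against 58% for Tnf, 45.7% for Il1b and a median of 52.7% for all promoters. The NF-kappaB decamer, the binding sequence of the factor that TNF and IL-1 activate, matched in 3 of the 9 genes. It read GGGACCCCCC at -140 in Tgfb1, GGAAAGTCCC at -154 in Csf1 (the match is on the opposite strand) and GGGATTTTCC at -44 in Il6, and 8.46% of all promoters held a match. TGANTCA, the AP-1 sequence, lay in Il1a and Il6 and in 7.81% of all promoters. Places of different motifs did not overlap in these 9 windows. A match describes these letters only.

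The deposited values are log2 signals, and a probe set was tested where its mean over the 6 arrays reached the 40th percentile (3.58 log2). Of the 15 member probe sets, 13 were tested, covering 8 genes, while the only probe sets of Il6 and Il10 lay below that level. A probe set was called at an adjusted p under 0.05 (limma, Benjamini-Hochberg over all 27022 tested probe sets), and "rose" and "fell" are used only of called ones. Sgpl1 itself read 2.46, 2.99 and 2.87 log2 in knockout replicates 1 to 3 and 6.65, 6.90 and 6.71 in WT, which bears out the labels. The summed linear signal of 12 hepatocyte markers was 74988 to 76252 in knockout and 76680 to 81509 in WT, lower in every knockout array. Of these markers 0 rose and 3 fell, where 18.6% of all genes were called. Precision is limited throughout by having 3 arrays in each group.

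Arrays of both genotypes had similar medians but unlike control signals. Bacterial poly-A RNAs, spiked in as labelling controls, are read by 24 probe sets, whose mean was 9.07, 8.75 and 8.52 log2 in knockout and 8.01, 7.99 and 8.08 in WT. They were thus 0.75 log2 higher in knockout. The excess of 3′ over 5′ signal, a measure of RNA quality, was higher in knockout for each of the 3 transcripts read. It was 2.77 to 3.40 log2 in knockout and 1.97 to 2.31 in WT for Pcx, 1.12 to 1.45 in knockout and 0.81 to 0.97 in WT for Actb, and 0.25 to 0.57 in knockout and -0.06 to 0.07 in WT for Gapdh. Each has a two-sided exact permutation p of 0.1, and 3 against 3 arrays cannot go lower. The part of RNA quality in the differences between genotypes was not tested, whether for single probe sets, for probe sets of 1 gene or between genes. When arrays are centred on these poly-A RNAs, every difference between genotypes of a single probe set is lower by 0.75 log2. Differences within an array are unchanged. The median of all genes then lies at -0.80 log2. Values on this second scale are given for the tested probe sets of the 10 genes and for the pathway genes named below where it ends a call or turns a direction.

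Over the 13 tested member probe sets, 3 rose, 0 fell and 10 were not called. That share of 23.1% stands beside the 17.9% of all tested probe sets that were called, 10.1% higher in knockout and 7.82% lower, so the count alone does not set these genes apart. Of all tested probe sets 2722 were called higher and 2113 lower on the deposited scale, 619 and 20409 on the poly-A scale, and 3983 and 1226 with arrays centred on 12 hepatocyte markers. The median difference of the 13 member probe sets was 0.16 log2, against -0.04 log2 over all tested probe sets. All knockout values lay above or below all WT values in 7 of the 13 probe sets (53.8%), 4 above and 3 below, where 40% of all tested probe sets were apart in this way, 18.8% above and 21.2% below.

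**Figure D1:**
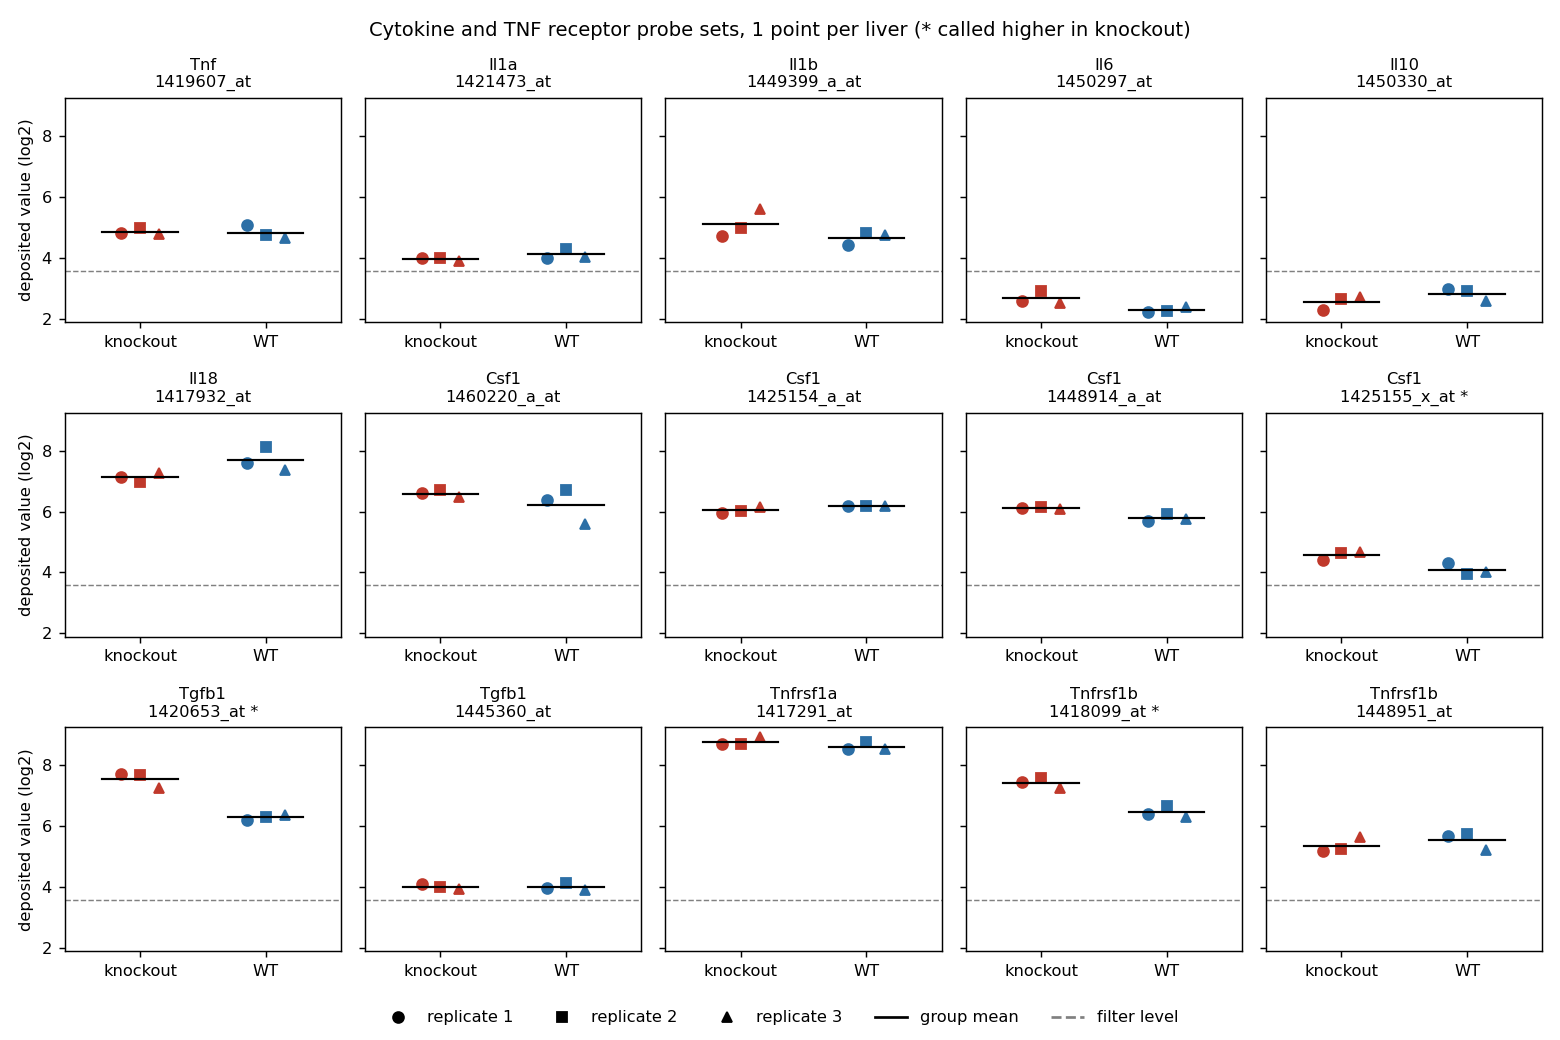
Deposited values (log2, y axis) of the 15 member probe sets in 3 knockout and 3 WT livers (x axis). Each point is 1 liver, each bar a group mean, and the dashed line the 3.58 log2 level below which probe sets were not tested; Tgfb1 1420653_at and Tnfrsf1b 1418099_at show the widest gaps between groups.

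The early cytokine genes Tnf, Il1a and Il1b were not called. Tnf, the gene of the cytokine itself, read 4.83, 4.97 and 4.78 log2 in knockout livers, against 5.09, 4.76 and 4.64 in WT livers. The groups overlap, and the highest Tnf value of the 6 is that of WT replicate 1. The difference was 0.03 log2 (SE 0.14, 95% confidence interval -0.30 to 0.36, limma adjusted p = 0.909). A knockout signal between 0.811 and 1.28 times that of WT thus lies within the interval. This bounds the signal of the probe set, and no detection calls were used to tell it from background. On the poly-A scale Tnf was called lower, by -0.72 log2 (adjusted p = 0.00652).

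Il1b, which encodes IL-1beta, read 4.71, 4.99 and 5.60 log2 in knockout livers, against 4.41, 4.82 and 4.76 in WT livers. Knockout replicate 3 was the highest of the 6 and knockout replicate 1 lay within the WT range. The difference was 0.44 log2 (SE 0.23, interval -0.09 to 0.96, limma adjusted p = 0.214). It was 0.19 log2 when knockout replicate 3 was left out and -0.31 on the poly-A scale (adjusted p = 0.237). Il1a, which encodes IL-1alpha, read 3.99, 3.99 and 3.90 log2 in knockout livers, against 4.01, 4.29 and 4.03 in WT livers. All 3 knockout values lay below all WT values, but by a margin smaller than the spread within the WT group, and the difference of -0.15 log2 (SE 0.12) did not pass (adjusted p = 0.385), though Il1a was called lower on the poly-A scale (-0.90 log2, adjusted p = 0.000643).

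A difference within an array does not depend on the scale of that array. Il1b minus Tnf was -0.12, 0.03 and 0.81 log2 in knockout and -0.69, 0.06 and 0.12 in WT. The groups overlap, and the mean difference of 0.41 log2 was not beyond the spread between animals (two-sided exact permutation p = 0.6).

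Il6 and Il10 were dim in every liver. Il6, whose product is the main inducer of acute phase proteins, read 2.57, 2.91 and 2.53 log2 in knockout livers, against 2.23, 2.26 and 2.40 in WT livers. All knockout values lay above all WT values, yet all 6 were below the 3.58 log2 level. In the fit without a filter the difference was 0.38 log2 (SE 0.11, limma adjusted p = 0.066), where 10.5% of 45037 probe sets were called. Il10, the gene of an anti-inflammatory cytokine, read 2.29, 2.64 and 2.70 log2 in knockout livers, against 2.97, 2.91 and 2.60 in WT livers. Its groups overlap, with a difference of -0.28 log2 in the same fit (SE 0.14, adjusted p = 0.233). No detection calls were used, so values this low cannot be told from background.

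Il18, which encodes a cytokine that is stored as an inactive precursor and released by caspase-1, had lower values in knockout without passing the test. It read 7.15, 6.97 and 7.27 log2 in knockout livers, against 7.60, 8.12 and 7.37 in WT livers. All knockout values lay below all WT values, with knockout replicate 3 and WT replicate 3 close to each other. The difference was -0.56 log2 (SE 0.20, interval -1.01 to -0.11, limma adjusted p = 0.0832), a WT level 1.48 times that of knockout. It passed without WT replicate 3 (-0.73 log2, adjusted p = 0.0368), under array quality weighting (-0.74, adjusted p = 0.0259) and on the poly-A scale (-1.31, adjusted p = 3.24e-06).

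Csf1, which encodes the growth factor of macrophages, gave 4 probe sets that did not move alike. The probe set that rose, 1425155_x_at, read 4.39, 4.64 and 4.67 log2 in knockout livers, against 4.30, 3.95 and 4.01 in WT livers. These groups are apart by less than the spread within the WT group, and the probe set carries the suffix for probes that can match other sequences. Its difference was 0.48 log2 (SE 0.14, limma adjusted p = 0.0458). The call was lost without a filter (adjusted p = 0.062), without any 1 of the 3 knockout replicates, without WT replicate 2 or without WT replicate 3 (adjusted p = 0.0587 to 0.137), and on the poly-A scale, where the sign turned (-0.27 log2, adjusted p = 0.309).

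The other 3 Csf1 probe sets, made to read several transcripts of the gene, were not called. Probe set 1448914_a_at read 6.10, 6.16 and 6.10 log2 in knockout livers, against 5.69, 5.92 and 5.77 in WT livers, 0.32 higher on average (SE 0.12, limma adjusted p = 0.0914). The brightest, 1460220_a_at, read 6.61, 6.70 and 6.47 log2 in knockout livers, against 6.38, 6.69 and 5.58 in WT livers. Its difference of 0.37 log2 (SE 0.26, adjusted p = 0.337) rests on the low WT replicate 3, without which it was 0.06. The fourth, 1425154_a_at, had all knockout values (5.94, 6.02 and 6.15 log2) below all WT values (6.19, 6.17 and 6.18), a difference of -0.14 (SE 0.11, adjusted p = 0.409), and it was called lower on the poly-A scale (-0.89 log2, adjusted p = 0.00114). On that scale 1448914_a_at and 1460220_a_at were at -0.43 and -0.37 log2 (adjusted p = 0.112 and 0.165). The positions of the probes within Csf1 are not stated in the labels or the annotation.

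Tgfb1, which encodes TGF-beta 1, had the highest rise of the group. Its brighter probe set, 1420653_at, read 7.72, 7.68 and 7.27 log2 in knockout livers, against 6.20, 6.30 and 6.37 in WT livers. All knockout values lay above all WT values, and knockout replicate 3 was the lowest of the knockout livers. The rise was 2.4-fold (1.26 log2, SE 0.15, interval 1.89 to 3.05-fold, limma adjusted p = 0.00142), and it passed in each fit that left out 1 array (1.18 to 1.41 log2). On the poly-A scale it was 0.51 log2 and missed the threshold (adjusted p = 0.0563).

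The dimmer Tgfb1 probe set, 1445360_at, did not share this. It read 4.10, 3.99 and 3.95 log2 in knockout livers, against 3.97, 4.12 and 3.91 in WT livers. It differed by 0.02 log2 (SE 0.11, limma adjusted p = 0.926, and -0.73 on the poly-A scale, adjusted p = 0.00479). Brighter minus dimmer within an array was 3.61, 3.69 and 3.31 log2 in knockout and 2.23, 2.18 and 2.46 in WT (two-sided exact permutation p = 0.1, the smallest possible). The 2 probe sets thus changed unequally, and centring the arrays does not alter this. This comparison of probe sets was chosen after their values were seen.

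On the brightest probe set of each, the TNF receptor genes differed unequally. Tnfrsf1b, which encodes the receptor of leukocytes and endothelium, read 7.45, 7.56 and 7.25 log2 in knockout livers, against 6.40, 6.65 and 6.31 in WT livers on its brighter probe set, 1418099_at. All knockout values lay above all WT values, and knockout replicate 3 was again the lowest knockout liver. The rise was 1.96-fold (0.97 log2, SE 0.14, interval 1.56 to 2.46-fold, limma adjusted p = 0.00351), and it passed in each fit that left out 1 array (0.90 to 1.07 log2). On the poly-A scale the difference was 0.22 log2 and did not pass (adjusted p = 0.417).

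The dimmer Tnfrsf1b probe set, 1448951_at, read 5.17, 5.24 and 5.63 log2 in knockout livers, against 5.67, 5.75 and 5.20 in WT livers. The groups overlap, and the difference of -0.19 log2 (SE 0.19) was not called (limma adjusted p = 0.498), but it was called lower on the poly-A scale (-0.94, adjusted p = 0.000592). Brighter minus dimmer was 2.27, 2.32 and 1.62 log2 in knockout and 0.73, 0.89 and 1.10 in WT (two-sided exact permutation p = 0.1). As for Tgfb1, this comparison was chosen after the values were seen, and the rise is that of 1 of the gene's 2 probe sets.

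Tnfrsf1a, which encodes the death domain receptor, read 8.69, 8.69 and 8.91 log2 in knockout livers, against 8.54, 8.74 and 8.53 in WT livers. The groups overlap, with a difference of 0.16 log2 (SE 0.12, interval -0.12 to 0.44, limma adjusted p = 0.39), and -0.59 on the poly-A scale (adjusted p = 0.0248). Tnfrsf1b minus Tnfrsf1a within an array was -1.24, -1.13 and -1.67 log2 in knockout and -2.14, -2.10 and -2.22 in WT. On the brighter Tnfrsf1b probe set, the shift of 0.81 log2 towards Tnfrsf1b holds for every knockout array against every WT array. It is the same however the arrays are centred (two-sided exact permutation p = 0.1), but centring does not remove a difference in RNA quality. The part of RNA quality in this shift was not tested. Taken over the mean of both Tnfrsf1b probe sets the shift was 0.23 log2. The dimmer Tnfrsf1b probe set alone, at -0.19 log2 against 0.16 for Tnfrsf1a, went the other way.

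**Figure D2:**
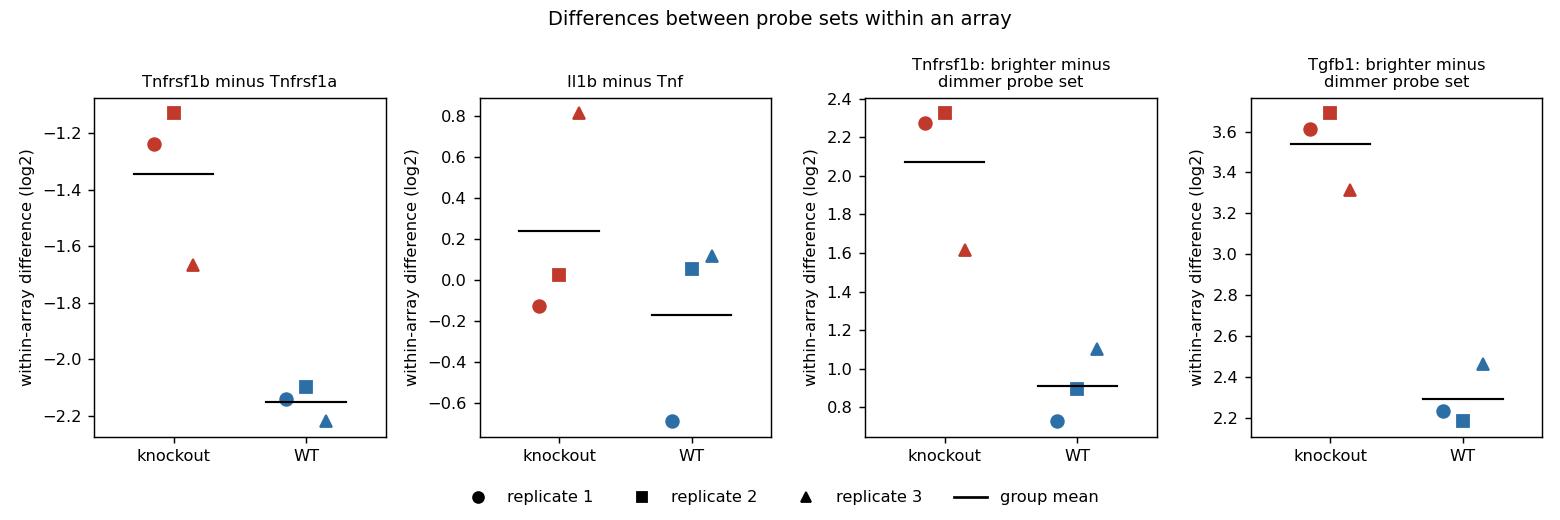
Differences between probe sets within an array (log2, y axis) in 3 knockout and 3 WT livers (x axis), each point 1 liver and each bar a group mean; the y axes differ. Tnfrsf1b minus Tnfrsf1a, on the brighter Tnfrsf1b probe set, and both contrasts between probe sets of 1 gene separate the genotypes, while Il1b minus Tnf overlaps.

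**Figure D3:**
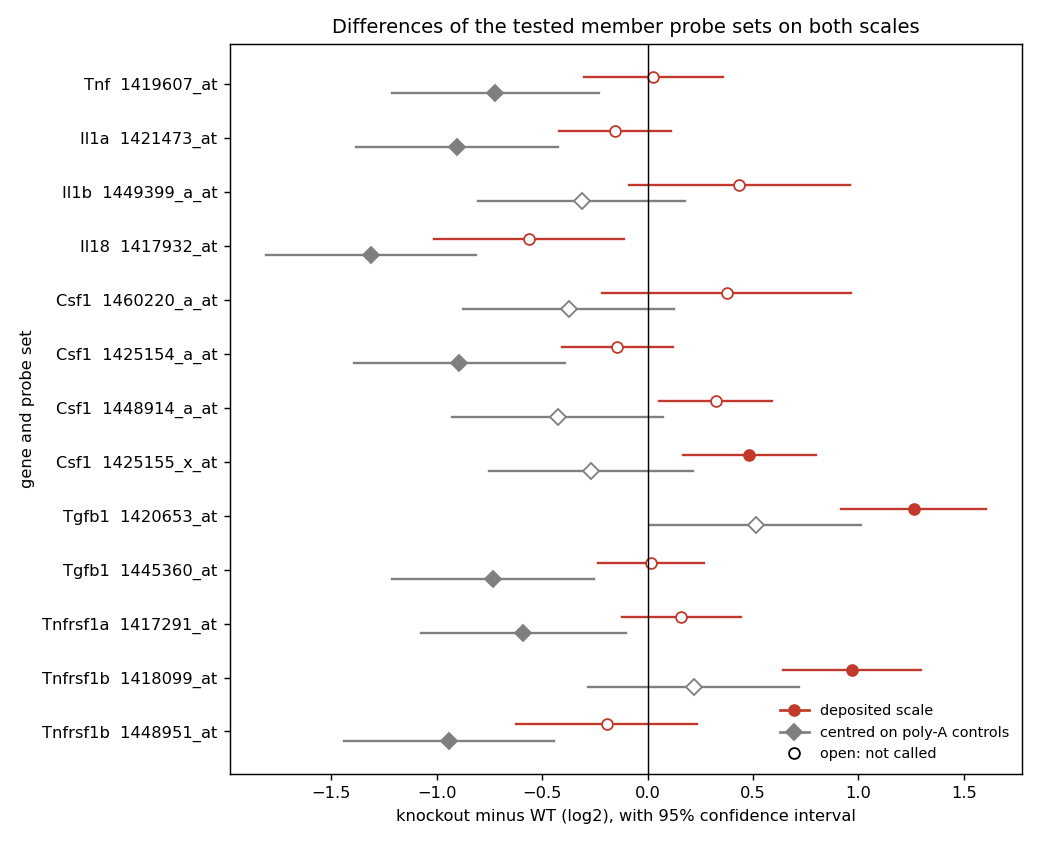
Knockout minus WT (log2, x axis) with 95% confidence intervals for the 13 tested member probe sets (y axis), on the deposited scale (circles) and with arrays centred on the poly-A controls (diamonds); filled symbols were called. On the deposited scale 3 are called higher and 0 lower, and on the poly-A scale 7 are called, all lower. Of all 27022 tested probe sets, 21028 were called on the poly-A scale, 20409 of them lower. The 7 calls alone thus do not set these genes apart.

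Transcripts of some leukocytes moved with these rises. In bulk liver, more cells of a type and more RNA per cell cannot be told apart. The counts below are on the deposited scale, where 18.6% of all genes were called, 10.5% higher in knockout and 8.09% lower. Of 12 tested neutrophil markers 11 rose and 0 fell, and their summed linear signal was 13711 to 15433 in knockout and 584 to 725 in WT. Of 8 monocyte markers 4 rose and 0 fell (3299 to 3617 in knockout and 1173 to 1703 in WT), and of 6 B and plasma cell markers 5 rose and 0 fell (377 to 490 in knockout and 147 to 154 in WT). Of 13 Kupffer cell markers 2 rose and 5 fell, with a median of -0.14 log2, the sums being 4581 to 4924 in knockout and 3077 to 5327 in WT. These sums join markers that moved in opposite directions. Cd5l and Marco differed by 1.15 and 3.02 log2, and Clec4f, Vsig4, Timd4, Cd163 and Folr2 by -2.82, -2.30, -1.32, -2.02 and -1.94 log2. They were named after their values were seen. Of 10 endothelial markers 2 rose and 1 fell (2228 to 2536 in knockout and 2164 to 2325 in WT), and of 10 stellate cell and fibroblast markers 1 rose and 3 fell (2311 to 2468 in knockout and 2672 to 2835 in WT). Of 6 T and NK cell markers 2 rose and 0 fell (251 to 305 in knockout and 167 to 202 in WT), with a median of -0.08 log2, and of 5 dendritic cell markers 1 rose and 0 fell (174 to 189 in knockout and 134 to 167 in WT), with a median of 0.12. With 30%, 33.3% and 20% of few genes called, the endothelial, T and NK and dendritic cell counts alone do not set these lists apart. The neutrophil marker Ly6g and the monocyte marker Ly6c2 were not analysed here. The part of these cells in the rises of Tgfb1 and Tnfrsf1b was not tested.

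Genes whose values over the 6 arrays followed Tnfrsf1b most closely were Tmsb10 (Pearson r = 0.999), Adam8 (r = 0.997) and Arhgdib (r = 0.997), with differences of 2.19, 1.44 and 1.84 log2. Those closest to Tgfb1 were Anp32b (r = 0.999), Fcmr (r = 0.998) and Rell1 (r = 0.998), with differences of 0.70, 1.19 and 0.81 log2. These figures describe 6 arrays that share a split by genotype, and 467 genes had an r over 0.95 with Tnfrsf1b and 541 with Tgfb1. The Csf1 probe set that rose was closest to Cystm1 (r = 0.996), Retreg1 (r = 0.99) and Selenot (r = 0.989).

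Around these 10 genes, 8 lists of pathway genes were read by the brightest probe set of each gene, where 18.6% of 13370 genes were called, 10.5% higher in knockout and 8.09% lower. Of 176 listed genes 116 were tested, 32 rose (27.6%) and 6 fell (5.17%). Of the called genes, 2 that rose had a WT mean below the 3.58 log2 level and 1 that fell had a knockout mean below it, so that they were tested only through their higher group. Of the 32 that rose, 23 passed in each fit that left out 1 array. On the poly-A scale 10 of the 32 were still called higher and 6 had a difference below 0.

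Of 15 tested genes that TNF and IL-1 induce, 7 rose, 0 fell and 8 were not called, with a median of 0.99 log2 (0.24 on the poly-A scale and 0.49 with dim probe sets left in) against -0.05 over all genes. The neutrophil chemokine gene Cxcl1 had a mean of 9.73 ± 0.70 log2 in knockout and 6.78 ± 0.23 in WT (SD, n = 3 each), a 7.74-fold rise (limma adjusted p = 0.000879). The adhesion molecule gene Vcam1 had 8.73 ± 0.27 log2 in knockout and 6.78 ± 0.17 in WT, a 3.88-fold rise (limma adjusted p = 0.000282). Nfkbia, the NF-kappaB inhibitor, rose 1.99-fold and Relb, an NF-kappaB subunit, 2.07-fold. Neither was called on the poly-A scale (0.24 and 0.30 log2), and Relb lay below the 3.58 log2 level in WT, with 4.49 ± 0.29 log2 in knockout and 3.44 ± 0.09 in WT (SD, n = 3 each), so its fold rests on a WT signal near background. Ccl2, a monocyte chemokine gene named after its value was seen, was 0.41 log2 higher and did not pass (adjusted p = 0.0675, and -0.34 log2 on the poly-A scale). The targets Cxcl1 and Vcam1 were called higher on both scales and the ligands Tnf and Il1b on neither, and the difference between targets and ligands was not tested.

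Of the 22 tested genes of the TNF receptor complex, 5 rose, 2 fell and 15 were not called, with a median of 0.04 log2 (-0.70 on the poly-A scale). Tnfaip3, which encodes the deubiquitinating enzyme A20 that ends NF-kappaB signalling, had 7.47 ± 0.54 log2 in knockout and 4.84 ± 0.49 in WT (SD, n = 3 each). Its rise was 6.19-fold (limma adjusted p = 0.00144), and it was the only 1 of the 5 called higher on the poly-A scale (1.88 log2), though its other tested probe set was not called. Tab2, an adaptor of the kinase TAK1, rose 1.95-fold, Tnip1, a partner of A20, 1.98-fold and Birc3, a ubiquitin ligase of the complex, 1.81-fold. These 3 were at 0.21, 0.23 and 0.11 log2 on the poly-A scale and were not called there. Birc3 lost its call when knockout replicate 1 or 2, or WT replicate 1 or 3, was left out. Fadd and Otulin fell, by 0.42 and 0.62 log2, but Fadd lost its call in each fit that left out 1 array, and Otulin with knockout replicate 1 or 3, or WT replicate 1 or 2, left out, and both were named after their values were seen. Birc3 and Fadd each have 1 other tested probe set, which was not called.

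Of 14 tested genes that release or activate the cytokines, 6 rose, 0 fell and 8 were not called, with a median of 0.63 log2 (-0.12 on the poly-A scale and 0.37 with dim probe sets left in). Pycard, the adaptor of the inflammasome that leads to cleavage of pro-IL-1beta and pro-IL-18, had 6.95 ± 0.29 log2 in knockout and 5.03 ± 0.56 in WT (SD, n = 3 each), a 3.8-fold rise (limma adjusted p = 0.00298). Rhbdf2, which escorts the enzyme that sheds TNF to the cell surface, rose 1.72-fold, with 0.03 log2 on the poly-A scale. Thbs1 and Mmp9, whose products can activate latent TGF-beta, rose 2.54-fold and 2.55-fold, and both were called on the poly-A scale too. Adam17, the sheddase of TNF and of both its receptors, rose 1.6-fold. It lost that call when knockout replicate 2 or 3, or WT replicate 1 or 2, was left out and was at -0.07 log2 on the poly-A scale, and neither of its 2 other tested probe sets was called. Casp1, the enzyme that matures IL-1beta and IL-18, was 0.58 log2 higher and did not pass (adjusted p = 0.0505, and -0.17 log2 on the poly-A scale). Adam17 and Casp1 were named after their values were seen.

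Of 15 receptor and antagonist genes of these cytokines, 4 rose, 1 fell and 10 were not called, with a median of 0.37 log2 (-0.38 on the poly-A scale and 0.78 over the 12 genes that reached the 60th percentile). Il1rn, the IL-1 receptor antagonist, had 6.78 ± 0.15 log2 in knockout and 5.64 ± 0.18 in WT (SD, n = 3 each), a 2.21-fold rise (limma adjusted p = 0.00149), and Il1r2, the decoy receptor of IL-1, rose 2.06-fold. Il6st, the signalling chain of the IL-6 receptor, rose 1.68-fold and Il10rb, a chain of the IL-10 receptor, 1.76-fold. Il1rap, the accessory chain of the IL-1 receptor, fell by 0.73 log2 (SE 0.14, adjusted p = 0.0108), with none of its 3 other tested probe sets called. None of the 4 that rose was called on the poly-A scale, where Il1rn, Il1r2 and Il10rb were at 0.40, 0.29 and 0.07 log2 and Il6st at -0.0033 log2, and Il1r2 lost its call without knockout replicate 2. Csf1r, the receptor of CSF1 on macrophages, was 0.33 log2 higher and did not pass (adjusted p = 0.121, and -0.42 log2 on the poly-A scale). Il1r1, a receptor of IL-1, was 1.36 log2 higher and did not pass (limma adjusted p = 0.0507). It was called higher on the poly-A scale (0.61 log2, adjusted p = 0.0201). Il1r1, Il1r2 and Csf1r were named after their values were seen.

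Genes listed here as targets of TGF-beta, not all of which it need induce in liver, did not move as one. Of 14 tested, 4 rose, 0 fell and 10 were not called, with a median of -0.06 log2 (-0.81 on the poly-A scale). Ccn2, a matricellular protein of wound repair, had 8.44 ± 0.33 log2 in knockout and 6.04 ± 0.57 in WT (SD, n = 3 each), a 5.28-fold rise (limma adjusted p = 0.00138) that was also called on the poly-A scale. Tgfbi rose 2.09-fold, the basement membrane collagen gene Col4a1 1.99-fold and Skil, a feedback inhibitor of the pathway, 1.81-fold. On the poly-A scale these 3 were at 0.31, 0.25 and 0.11 log2 and were not called, and the 1 other tested probe set of Skil was not called on the deposited scale. The fibrillar collagen genes Col1a1, Col1a2 and Col3a1, named after their values were seen, differed by -0.11, -0.05 and -0.43 log2 and were not called, though all 3 were called lower on the poly-A scale (-0.86, -0.80 and -1.18 log2).

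**Figure D4:**
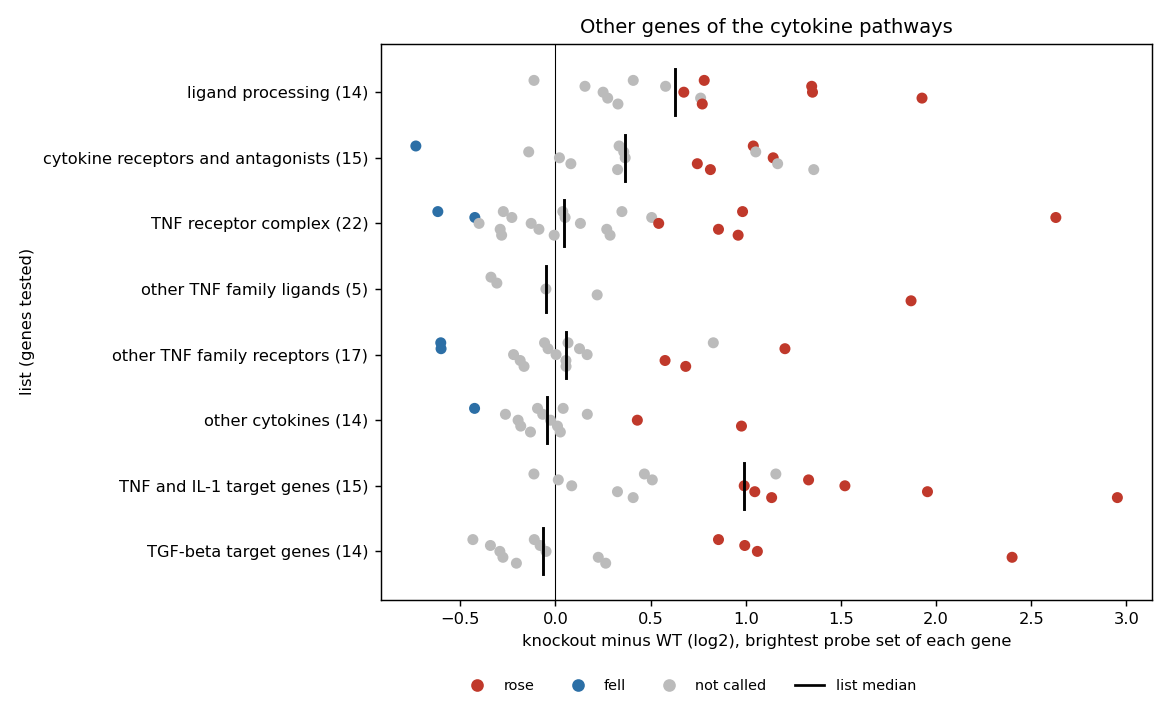
Knockout minus WT (log2, x axis) of each tested gene in 8 pathway lists (y axis, genes tested in brackets), 1 point per gene by its brightest probe set, coloured by call, with the list median as a bar. TNF and IL-1 target genes have the highest median on the deposited scale, at 0.99, and other TNF family ligands hold the fewest tested genes, 5.

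Of the other cytokine genes, 14 of 36 were tested, 2 rose, 1 fell and 11 were not called, with a median of -0.05 log2 (-0.80 on the poly-A scale). Ebi3, a subunit shared by IL-27 and IL-35, rose 1.97-fold (limma adjusted p = 0.00725, and 0.23 log2 and not called on the poly-A scale) and Mif 1.35-fold (adjusted p = 0.0459), and Tgfb3 fell by 0.42 log2 (SE 0.11, adjusted p = 0.0329). Mif lost its call without any 1 of the 3 knockout replicates or without WT replicate 1 or 2, and was at -0.32 log2 on the poly-A scale. Tgfb3 lost its call without the same 5 arrays, each in turn.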

How the data were processed

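Total RNA from 6 mouse livers was extracted with TRIzol and labelled with biotin, per the labels' protocols. The values deposited by the authors are on the log2 scale, 1 per probe set and array. Base 2 follows from the range of the values, because any other would pass what a 16-bit scanner records. MAS5 is named without version or role, per the submitters' processing notes, and no source used here states how signals were corrected, scaled or summarized.

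Groups were taken from the genotype labels, and replicates are separate mice numbered only to name them. Of 45101 probe sets, 64 were array controls, 34958 had exactly 1 symbol, 932 several and 9211 none listed. Symbols were updated through gene identifiers, which matched GRCm38.p6 for 34754 of the probe sets with 1 symbol.

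The genotype comparison used limma 3.58.1 under R 4.3.3 (lmFit, eBayes with an intensity trend, two-sided), tested on simulated data, over 27022 probe sets whose mean reached the 40th percentile. For the pathway lists the brightest tested probe set stood for each of 13370 genes. Folds are powers of 2 of knockout minus WT, and single values were compared by exact permutation in scipy 1.17.1. The alternatives tried were leaving dim probe sets in, filtering at the 60th percentile, quantile normalization, arrays centred on the median, on poly-A controls or on 12 hepatocyte markers, no intensity trend, array quality weights, 1 probe set per gene, and leaving out each array.

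The genes and lists were chosen with earlier results of these data known. Named are all 10 genes, up to 4 genes of each pathway list with the smallest adjusted p, and the 3 genes most correlated with each of the 3 members of smallest adjusted p. Others are said to be named after their values were seen. Motifs were searched in RefSeq promoters.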

Additional observations from a re-analysis of the deposited data

How the results depend on the processing

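With arrays centred on the poly-A controls, 21028 probe sets were called over all, 7 of the members' and 71 of the pathway genes, against 4835, 3 and 38 as deposited, and the cause of the higher control signal was not tested. On that scale 4 member probe sets changed sign with a call on either scale: Tnf (-0.72 log2), Tnfrsf1a (-0.59), the dimmer Tgfb1 probe set (-0.73) and the Csf1 probe set that rose (-0.27). Calls of Tgfb1 and Tnfrsf1b on their brighter probe sets were kept under 14 of 15 alternatives each, the exception being this scale. That of Csf1 was kept under 6 of 13. Testing 1 probe set per gene gave 2482 calls by construction, since fewer features were tested, and 2 among the members. Leaving out 1 array at a time gave 2517 to 4639 calls over all (2605 without knockout replicate 1 and 2517 without knockout replicate 2), 2 or 3 among the members and 28 to 36 among the pathway genes. Over the same fits Tnfrsf1b minus Tnfrsf1a was 0.70 to 0.97 log2, and Il1b minus Tnf 0.12 to 0.59, the lowest without knockout replicate 3 and 0.15 without WT replicate 1. Medians of the pathway lists moved by at most 0.25 log2 in these fits, and the sign changed in the 5 lists whose medians lie nearest 0. With dim probe sets left in, the median was 0.49 log2 for TNF and IL-1 target genes, 0.37 for ligand processing, -0.07 for other TNF family ligands, -0.10 for other cytokines and -0.04 for other TNF family receptors. At the 60th percentile it was 0.78 for cytokine receptors and antagonists, 0.30 for other cytokines (4 genes tested), 0.09 for TGF-beta target genes and 1.87 for other TNF family ligands (Ltb alone). Quantile normalization and array quality weights turned the median of other TNF family receptors (-0.01 log2 each) and centring on hepatocyte markers those of TGF-beta target genes, other ligands and other cytokines (0.05, 0.07 and 0.07). No paired analysis was possible because the labels give no replicate numbers. Signal near background limits Il6 and Il10, and may limit Il1a and the dimmer Tgfb1 probe set.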

Other observations

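Among the other TNF family genes Ltb and 3 receptor genes rose in the knockout livers. Ltb, which encodes lymphotoxin beta, a ligand that lymphocytes use to organise lymphoid tissue, had 5.88 ± 0.41 log2 in knockout and 4.01 ± 0.19 in WT (SD, n = 3 each). It rose 3.65-fold (limma adjusted p = 0.00105), also on the poly-A scale (1.12 log2), and was the 1 called gene among 5 tested of 17 other TNF family ligands, where 18.6% of all genes were called. Eda, Tnfsf4 and Tnfsf9 differed by -0.34, -0.31 and 0.22 log2 and were not called, and on the poly-A scale all 3 were called lower (-1.09, -1.06 and -0.53 log2). Of 17 other TNF family receptor genes tested, 3 rose, 2 fell and 12 were not called, with a median of 0.06 log2 (-0.69 on the poly-A scale). Tnfrsf13b and Tnfrsf13c, receptors of B cells for survival factors, rose 2.31-fold and 1.49-fold, the second named after its value was seen. Neither was called on the poly-A scale (0.46 and -0.17 log2), and Tnfrsf13b had a WT mean below the 3.58 log2 level, with 4.76 ± 0.21 log2 in knockout and 3.55 ± 0.50 in WT (SD, n = 3 each). Other receptors of lymphocytes were not called, with Tnfrsf4 at -0.04, Tnfrsf9 at 0.00, Tnfrsf14 at -0.19, Tnfrsf18 at -0.22 and Cd40 at 0.17 log2, and these were named after their values were seen. Tnfrsf13b lost its call without knockout replicate 2, and Tnfrsf13c when either of knockout replicates 1 and 2 or WT replicates 2 and 3 was left out. The B cell genes Cd79a, Cd79b and Ms4a1 rose 3.52-fold, 4.44-fold and 2.98-fold in the same livers, and the part of B cells in the rise of Ltb was not tested.

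Tnfrsf21, a death domain receptor, rose 1.61-fold (limma adjusted p = 0.00958), with -0.06 log2 on the poly-A scale and its 1 other tested probe set not called. Tnfrsf11b, the soluble decoy receptor osteoprotegerin, fell by 0.60 log2 (SE 0.10, adjusted p = 0.0063) and Ngfr, which stellate cells carry, by 0.60 (SE 0.12, adjusted p = 0.0113), and both kept their calls in each fit that left out 1 array, while the 1 other tested probe set of Ngfr was not called. Tnfrsf11b read below the 3.58 log2 level in knockout, at 3.48 ± 0.07, and 4.08 ± 0.11 in WT (SD, n = 3 each).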
